A study of Homo sapiens with 2 samples.

Results

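Genes of the RNA polymerase and Mediator subunits were described in KASUMI-1, a cell line of human acute myeloid leukaemia in which RUNX1 is fused to RUNX1T1. They were taken by name, as all symbols starting with POLR1, POLR2 or POLR3 and a letter, all numbered MED symbols with or without a final L, and CCNC, CDK8 and CDK19. Of 73 rows that matched, 10 pseudogene rows were left out. The 63 genes that remained, of 50868 listed, comprised 5 of polymerase I, 15 of polymerase II, 10 of polymerase III and 33 of Mediator.

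The compared cells carried the USP6 lentivirus, named after a ubiquitin-specific protease, or the pccl lentivirus, taken here as its control. All cells were KASUMI-1, a single cell line, and the promoter of the construct, the time after infection and any selection of infected cells are not given in the labels. The question is how subunit messages compared between the cultures. Each group held 1 library of bulk total RNA. No difference therefore has a replicate check, no test was made, and the words higher and lower describe these libraries alone. In bulk RNA, fewer cells carrying a message and less message per cell cannot be told apart.

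The USP6 library held 12518795 counts and the pccl library 12306442. Mitochondrial genes took 45.6% of the counts in the USP6 library (95% Clopper-Pearson interval 45.6 to 45.7) and 49.9% in the pccl library (49.8 to 49.9). The USP6 gene had 70 counts (0.340 FPKM) in the USP6 library and 8 (0.0396 FPKM) in the pccl library, under 1 FPKM in both. These counts may or may not include the construct. Of 7 markers chosen for KASUMI-1, 6 were expressed, CD38 being the exception, and KIT and CD34 were lower in the USP6 library whereas MPO was higher. The marker lists of T cells, B cells, erythroid cells and epithelial or stromal cells had 3 of 4, 1 of 3, 0 of 3 and 1 of 5 genes expressed. Their summed counts were 893, 325, 1 and 496 in the USP6 library, against 606, 83, 2 and 916 in the pccl library. Single genes made up much of these sums, with CD79A at 321 and 78 counts and EPCAM at 470 and 914, in the same order. Among T cell markers CD3D had 436 and 527 counts. CD2 (81 and 4) and CD3E (372 and 75) reached 1 FPKM in the USP6 library alone and so had to be higher. The part of these markers in the differences was not tested.

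The 3 nuclear RNA polymerases divide transcription between them. Polymerase I makes the large ribosomal RNA precursor, polymerase II makes messenger RNA and many noncoding RNAs, and polymerase III makes transfer RNA, the 5S ribosomal RNA and other short RNAs. Each is built around a pair of large subunits that form the active site, and several small subunits are shared. Mediator is a many-subunit coactivator that links enhancer-bound transcription factors to polymerase II. Its head and middle contact the polymerase, its tail contacts activators, MED14 runs through the complex as a scaffold, and a detachable kinase module of CDK8 or CDK19, cyclin C, MED12 and MED13 regulates it. In leukaemia cells Mediator is known for its high occupancy at enhancers of cell identity genes.

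Levels are given as FPKM, fragments scaled by the length of the gene and by the counts of its library. A gene counted as expressed if the library in which it was higher had 1 FPKM or more. Differences are on the scale of log2((USP6 + 1)/(pccl + 1)), which compresses low genes, and a gene was called higher or lower at or past 1 or -1. Folds are ratios of FPKM, with exact 95% intervals from the counts. These cover counting error only, and they may be too narrow since copies of 1 molecule are not independent.

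The subunit genes did not move as a block. Of the 63 genes, 53 were expressed and 10 were not, namely POLR2J2, POLR2J3, POLR3B, MED9, MED12L, MED17, MED22, MED23, MED29 and MED31. Among the expressed genes, 4 were called higher in the USP6 library (MED18, MED25 and MED15 among them), against 13.7% of all 10153 expressed genes. The call of lower went to 7 (POLR3F, MED13, MED14, POLR3K, CCNC, POLR2A and MED27), against 11.4% of all expressed genes. These are 7.55% and 13.2% of the expressed subunit genes, so the share that was lower lay near the background and the share that was higher below it. At a limit of 0.58, or 1.5-fold, 7 were higher and 14 lower, against 27.9% and 24.5% of all expressed genes. The counting interval of the fold lay wholly above 1 in 14 of the 53 genes (26.4%, against 42.1% of all expressed genes) and wholly below 1 in 27 (50.9%, against 38.5%). Over the 8260 expressed protein-coding genes alone, 11.6% were higher and 11.3% lower at the limit of 1. Their intervals lay wholly above 1 in 42.1% and wholly below 1 in 42.2%.

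The median log2 ratio was -0.19 over the 53 expressed subunit genes, 0.06 over all expressed genes and 0.0012 over the expressed protein-coding genes. It was -0.10 for polymerase I, -0.28 for polymerase II, -0.38 for polymerase III and -0.18 for Mediator. Centred on the trend with GC content the polymerase I median was 0.11 and that of polymerase II -0.48. With a filter of 5 FPKM the polymerase III median was 0.0056. Over all 15 polymerase II genes, without a filter, the median was -0.14. Of the 53 genes, 0 reached 1 FPKM in the USP6 library alone, against 1466 of all 10153 expressed genes. In the pccl library alone 7 did so (POLR2B, POLR3F, POLR3G, MED6, MED19, MED30 and CDK8), against 1338 of all expressed genes. Those 7 thus had to be lower. Over all 63 genes, whether expressed or not, the median was -0.14, against 0.02 over the 19960 symbols with a count in either library. The standard deviation of the log2 ratio was 0.38 within polymerase I and 0.49 within polymerase II. It was 0.91 within polymerase III and 0.92 within Mediator, against 0.91 over all expressed genes.

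**Figure D1:**
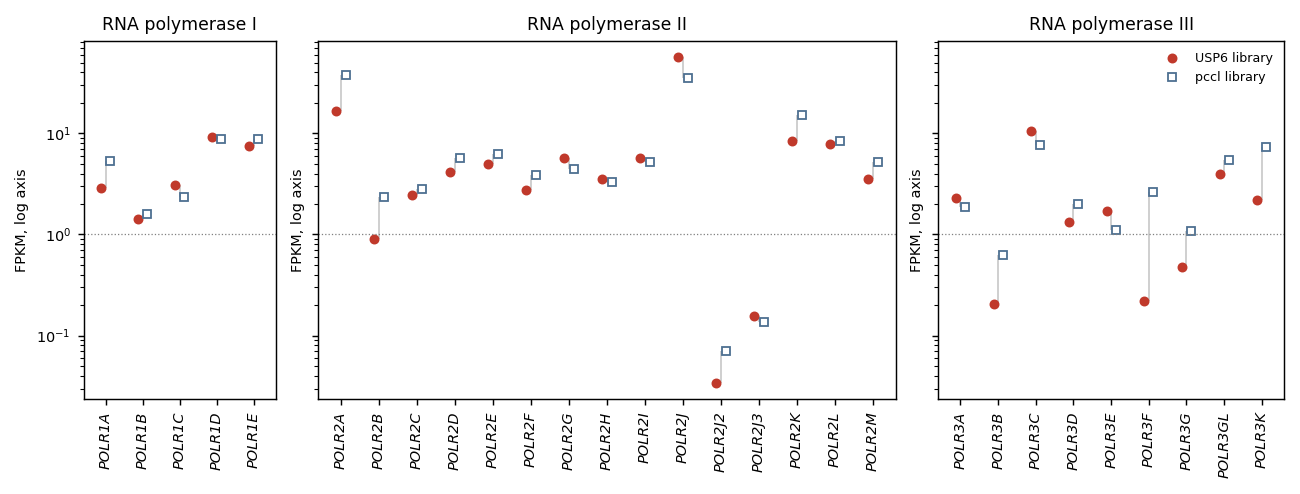
FPKM (log axis) of polymerase subunit genes in the USP6 library (filled circles) and the pccl library (open squares), 1 library each, with a dotted line at 1 FPKM. POLR2A stood at 16.7 and 37.6 FPKM and POLR3F at 0.221 and 2.64, in the USP6 and pccl libraries, whereas most other polymerase II genes lay close together.

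The large catalytic subunit genes did not all go the same way. POLR2A, POLR2B and POLR1A were lower in the USP6 library, and POLR3A was slightly higher. POLR2A, which encodes the largest subunit of polymerase II with its repeated C-terminal domain, had 16.7 FPKM (2616 counts) in the USP6 library and 37.6 FPKM (5786 counts) in the pccl library. It was 2.25-fold lower (2.15 to 2.36) and the member with the most counts in both libraries. POLR2A is listed on chromosome 17 from 7484366 to 7514618 (GRCh38). POLR2B, the second-largest subunit, had 0.896 FPKM in the USP6 library and 2.37 in the pccl library, 2.64-fold lower (2.08 to 3.37). It reached 1 FPKM in the pccl library alone and so had to be lower.

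The corresponding genes of the other polymerases differed among themselves. POLR1A, the largest subunit of polymerase I, had 2.89 FPKM in the USP6 library and 5.37 in the pccl library, 1.86-fold lower (1.68 to 2.05). Its partner POLR1B had 1.42 and 1.60 FPKM in the same order, with an interval that included 1. The remaining polymerase I gene, POLR1E, had 7.47 FPKM in the USP6 library and 8.73 in the pccl library. POLR3A, the largest subunit of polymerase III, had 2.29 FPKM in the USP6 library and 1.87 in the pccl library, a ratio of 1.23 (1.02 to 1.47). POLR3B lay under 1 FPKM in both, with 15 counts in the USP6 library and 45 in the pccl library. Summed over these 6 genes, counts were 3924 in the USP6 library and 7760 in the pccl library, 2.01-fold lower (1.94 to 2.09). POLR2A contributed most of that sum.

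The subunits shared between polymerases were mostly near even before any centring on GC content. POLR2E, POLR2F, POLR2H, POLR2K and POLR2L belong to all 3 enzymes, and POLR1C and POLR1D to polymerases I and III. None of the 7 passed a limit of 1, and their median log2 ratio was -0.10. Centred on the trend with GC content it was -0.49, against -0.54 for the large subunits, with POLR2E at -0.78, POLR2F at -0.72 and POLR2L at -0.64. POLR2K was the farthest from even as deposited, with 8.49 FPKM in the USP6 library and 15.03 in the pccl library (1.77-fold lower, 1.52 to 2.07). POLR2F had 2.77 FPKM in the USP6 library and 3.86 in the pccl library, and POLR2E had 4.97 and 6.24. For POLR2L the values were 7.79 FPKM in the USP6 library and 8.42 in the pccl library, and for POLR2H 3.50 and 3.31. POLR1D had 9.20 FPKM in the USP6 library and 8.75 in the pccl library. POLR1C was the one whose interval lay above 1, with 3.10 FPKM in the USP6 library and 2.32 in the pccl library (1.33-fold, 1.10 to 1.62).

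Among the remaining polymerase II genes, none passed a limit of 1 in either direction. POLR2J, a small core subunit, had 56.8 FPKM in the USP6 library and 35.6 in the pccl library, 1.60-fold higher (1.45 to 1.75). POLR2G, a stalk subunit, had 5.66 FPKM in the USP6 library and 4.41 in the pccl library. Its stalk partner POLR2D was lower, with 4.18 FPKM in the USP6 library and 5.72 in the pccl library. POLR2C and POLR2I had intervals that included 1. POLR2M, whose product makes transcription by polymerase II depend on Mediator, had 3.53 FPKM in the USP6 library and 5.19 in the pccl library (1.47-fold lower, 1.32 to 1.64).

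Counting within the POLR2J family is uncertain, since its copies on the minus strand of chromosome 7 share sequence. The first coding bases of POLR2J and of its copies POLR2J2 and POLR2J3 are shown to make this visible, from GENCODE 29 transcripts (GRCh38). In POLR2J the capitals mark 3 bases that have no counterpart in the copies, at a place that is arbitrary within a repeat, and in POLR2J2 they mark substitutions.
POLR2J: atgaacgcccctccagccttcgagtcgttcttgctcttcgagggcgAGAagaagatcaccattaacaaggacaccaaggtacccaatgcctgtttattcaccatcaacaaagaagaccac
POLR2J2: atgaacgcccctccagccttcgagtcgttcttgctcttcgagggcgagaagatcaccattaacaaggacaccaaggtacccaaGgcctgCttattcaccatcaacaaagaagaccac
POLR2J3: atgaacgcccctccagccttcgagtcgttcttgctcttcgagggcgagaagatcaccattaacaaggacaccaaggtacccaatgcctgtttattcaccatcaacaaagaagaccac
Counted from 1 at the first base of the start codon of POLR2J, with POLR2J's base first, POLR2J2 differs by T87G and T93C, and POLR2J3 by 0 substitutions over these bases. Of the 50-base windows of the POLR2J coding sequence, 87.7% occur in transcripts of another copy. POLR2J2 had 1 count in the USP6 library and 2 in the pccl library, and POLR2J3 had 34 and 29. POLR2J held 97.1% of the counts of POLR2J and POLR2J3 in the USP6 library (96.0 to 98.0) and 96.1% in the pccl library (94.4 to 97.4).

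Polymerase III subunits went in both directions. POLR3F, a subunit of the initiation subcomplex, had 0.221 FPKM (12 counts) in the USP6 library and 2.64 FPKM (141 counts) in the pccl library. It was 11.95-fold lower (6.63 to 23.7), the lowest ratio of all 63 genes. POLR3F reached 1 FPKM in the pccl library alone and so had to be lower. Its partner POLR3C had 10.4 FPKM in the USP6 library and 7.73 in the pccl library, 1.35-fold higher (1.17 to 1.55). The alternative subunits that complete it, POLR3G and POLR3GL, were both lower, with 0.479 and 3.95 FPKM in the USP6 library, against 1.08 and 5.43 in the pccl library. Of this pair, POLR3G reached 1 FPKM in the pccl library alone and so had to be lower. POLR3G, known from embryonic stem and cancer cells, held 21.4% of the pair's counts in the USP6 library (16.1 to 27.6) and 31.0% in the pccl library (26.0 to 36.3), intervals that overlap.

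POLR3K, a small subunit used in termination, had 2.19 FPKM in the USP6 library and 7.39 in the pccl library, 3.37-fold lower (2.54 to 4.55). It overlaps an expressed gene on the other strand, and whether the counting used strand is not known. POLR3K shares 619 bases with SNRNP25, which had 577 counts in the USP6 library and 479 in the pccl library. That neighbour showed no difference as large as that of POLR3K. Of the pair POLR3D and POLR3E, POLR3D had 1.32 FPKM in the USP6 library and 2.02 in the pccl library, and POLR3E had 1.72 and 1.12.

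**Figure D2:**
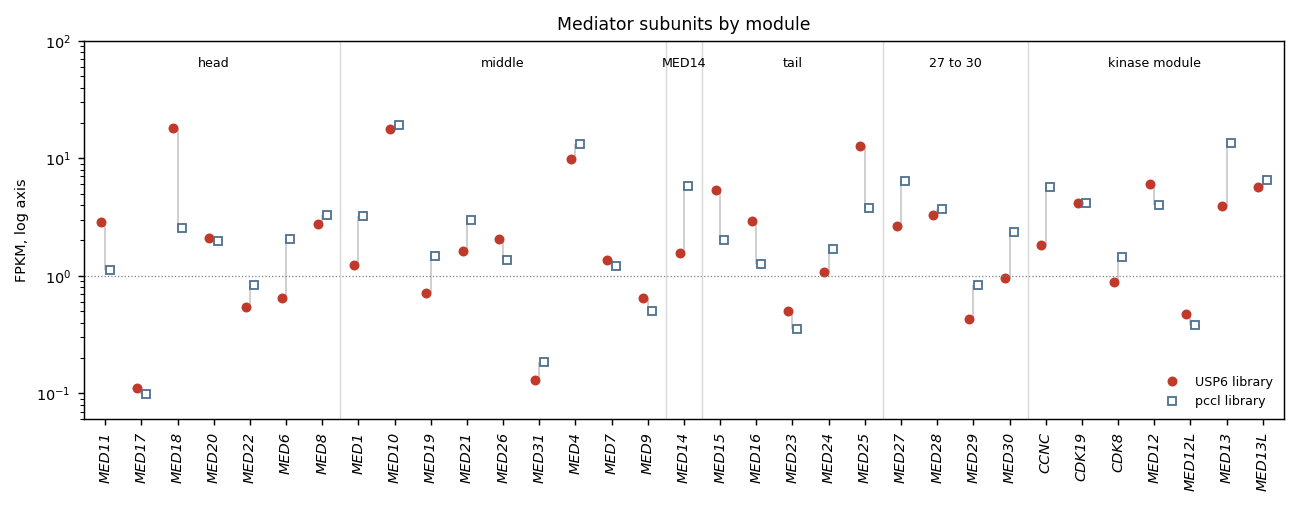
FPKM (log axis) of each Mediator subunit gene in the USP6 library (filled circles) and the pccl library (open squares), 1 library each, grouped by module, with a dotted line at 1 FPKM. MED18, MED15 and MED25 stood higher in the USP6 library, and MED14, MED13 and CCNC lower.

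Mediator genes went in both directions. Median log2 ratios were 0.06 in the head, -0.27 in the kinase module and -0.77 in MED27 to MED30, over 5, 6 and 3 expressed genes. Centred on the trend with GC content these medians were 0.13, -0.06 and -0.56. Over all 7, 7 and 4 genes, without a filter, they were 0.02, -0.17 and -0.57. MED6 in the head, CDK8 in the kinase module and MED30 reached 1 FPKM in the pccl library alone and so had to be lower. The tail was the module with the highest median log2 ratio, 0.94 over 4 expressed genes of 5. These transcripts were GC-rich, with a median of 60.1%, and centred on the trend with GC content the median was 0.26. MED25, which binds activation domains, had 12.6 FPKM (1595 counts) in the USP6 library and 3.78 FPKM (470 counts) in the pccl library, 3.34-fold higher (3.01 to 3.71). MED15, a tail subunit that binds sterol and TGF-beta pathway factors, had 5.42 FPKM in the USP6 library and 2.01 in the pccl library, 2.70-fold higher (2.44 to 2.995). MED16 had 2.91 FPKM in the USP6 library and 1.27 in the pccl library, 2.30-fold higher (1.89 to 2.80), and did not reach the limit of 1 on the compressed scale. MED24 was the exception, with 1.08 FPKM in the USP6 library and 1.70 in the pccl library (1.58-fold lower, 1.33 to 1.88). MED23 had 71 counts in the USP6 library and 49 in the pccl library. Summed counts of the tail genes were 3655 in the USP6 library and 1531 in the pccl library, a 2.35-fold ratio (2.21 to 2.49).

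In the head, MED18 had the largest ratio of all 63 genes. It had 18.0 FPKM (926 counts) in the USP6 library and 2.58 FPKM (130 counts) in the pccl library, 7.00-fold higher (5.82 to 8.48). MED18 is listed on chromosome 1 from 28329002 to 28335967. Its structural partner MED20 had 2.11 FPKM in the USP6 library and 1.98 in the pccl library, with an interval that included 1. MED11 had 78 counts in the USP6 library and 30 in the pccl library (2.56-fold higher, 1.66 to 4.04), and MED6 had 66 and 205 (3.16-fold lower, 2.38 to 4.24). MED8 had 2.76 FPKM in the USP6 library and 3.30 in the pccl library. MED17, the central subunit of the head, had 23 counts in the USP6 library and 20 in the pccl library. MED22 lay under 1 FPKM in both libraries, with 103 counts in the USP6 library and 158 in the pccl library.

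The middle module had a median log2 ratio of -0.40 over 7 expressed genes of 9, and none was called. Over all 9 genes the median was -0.10, and centred on the trend with GC content it was -0.08 over the 7, among which MED19 reached 1 FPKM in the pccl library alone. MED1, which binds nuclear receptors, had 1.24 FPKM in the USP6 library and 3.23 in the pccl library, 2.61-fold lower (2.19 to 3.14). MED21 had 1.61 FPKM in the USP6 library and 2.99 in the pccl library (1.85-fold lower, 1.45 to 2.39). MED4 had 9.80 and 13.3 FPKM in the same order, and MED19 had 0.711 and 1.47. MED26, which recruits elongation factors, was the one whose interval lay above 1, with 2.08 FPKM in the USP6 library and 1.38 in the pccl library (1.51-fold, 1.24 to 1.83). MED10 was close to even, with 17.7 FPKM in the USP6 library and 19.1 in the pccl library, and MED7 had 1.38 and 1.21. MED9 and MED31 lay under 1 FPKM, MED9 with 60 counts in the USP6 library and 46 in the pccl library, and MED31 with 5 counts in the USP6 library and 7 in the pccl library.

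MED14, the scaffold of the complex, had 1.56 FPKM (221 counts) in the USP6 library and 5.78 FPKM (804 counts) in the pccl library, 3.70-fold lower (3.19 to 4.31). MED14 is listed on chromosome X from 40648306 to 40735858. Of the genes MED27 to MED30, MED27 had 2.63 FPKM in the USP6 library and 6.37 in the pccl library (2.42-fold lower, 1.84 to 3.20), and MED30 had 29 counts in the USP6 library and 70 in the pccl library. MED28 had 3.32 FPKM in the USP6 library and 3.68 in the pccl library, with an interval that included 1, and MED29 had 78 and 150 counts.

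Within the kinase module, paralogues and partners differed. MED13, which anchors the module to the core complex, had 3.93 FPKM (720 counts) in the USP6 library and 13.6 FPKM (2442 counts) in the pccl library, 3.45-fold lower (3.17 to 3.75). MED13 is listed on chromosome 17 from 61942605 to 62065282. Its paralogue MED13L had 5.68 FPKM in the USP6 library and 6.49 in the pccl library, 1.14-fold lower (1.07 to 1.23). MED13 held 32.7% of the counts of this pair in the USP6 library (30.8 to 34.7) and 59.5% in the pccl library (58.0 to 61.0), intervals that do not overlap. AC018628.1 overlaps MED13 on the same strand and had 205 counts in the USP6 library and 95 in the pccl library, the opposite direction.

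CCNC, which encodes cyclin C, had 1.84 FPKM in the USP6 library and 5.75 in the pccl library, 3.13-fold lower (2.73 to 3.60). The alternative kinases were less far apart. CDK8 had 0.884 FPKM in the USP6 library and 1.45 in the pccl library (1.64-fold lower, 1.21 to 2.25), and CDK19 had 4.13 and 4.16, with an interval that included 1. CDK8 held 14.3% of the counts of both kinases in the USP6 library (11.4 to 17.8) and 21.4% in the pccl library (18.0 to 25.2). MED12, which activates the kinase, had 6.03 FPKM in the USP6 library and 3.98 in the pccl library, 1.51-fold higher (1.35 to 1.70). Its paralogue MED12L lay under 1 FPKM, with 87 counts in the USP6 library and 68 in the pccl library.

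**Figure D3:**
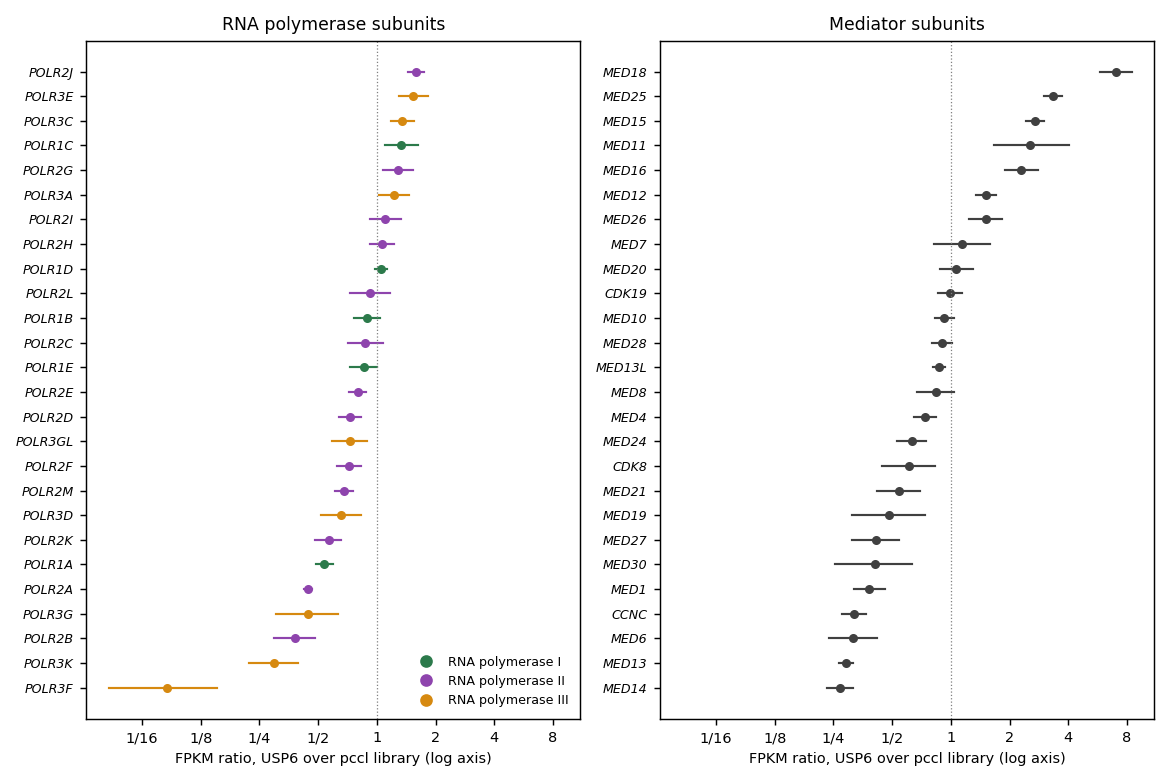
FPKM ratio of the USP6 over the pccl library (log axis) of 52 expressed subunit genes, sorted by ratio within each panel, with exact 95% intervals that cover counting error only (1 library each). MED18 lay at 7.00, POLR2A at 0.444 and POLR3F at 0.0837.

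Levels of different subunit genes can be set side by side only per length, and for most genes the deposited FPKM uses a gene length that counts overlapping exons repeatedly. This held for 50 of the 63 subunit genes. Over the union of exons the lowest polymerase II core gene was POLR2B in both libraries, with 1.30 FPKM in the USP6 library and 3.43 in the pccl library. The highest was POLR2J at 68.2 in the USP6 library and POLR2A at 56.3 in the pccl library. The median of these 12 core genes was 11.0 in the USP6 library and 10.4 in the pccl library. For Mediator the highest was MED18 at 36.6 in the USP6 library and MED10 at 27.6 in the pccl library, and MED17 was the lowest of both. On this scale MED13 stood at 1.43 times the level of MED13L in the USP6 library and at 4.33 times in the pccl library. That order in the USP6 library rests on the length taken for MED13L, whose deposited length is 0.557 times its exon union. With the deposited FPKM, MED13 lay below MED13L there, at 3.93 against 5.68.

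The differences ran along the GC content of the transcripts. Over the 53 expressed subunit genes, Spearman's rho between the log2 ratio and the GC percentage was 0.57 (Pearson's r 0.52), against a Spearman's rho of 0.40 over 10108 expressed genes. These are descriptions over genes of the same pair of libraries, so they carry no test. Median GC was 59.2% in the 4 higher genes, 41.7% in the 7 lower genes and 48.4% in the rest. Centred on the trend over all expressed genes, MED18 had a log2 ratio of 2.43, against 2.41 before, and POLR2A had -1.44, against -1.12. MED15, at 0.48, and CCNC, at -0.89, were among the genes that no longer reached 1 or -1. MED16 dropped to 0.04. The part of GC content in the differences was not tested.

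**Figure D4:**
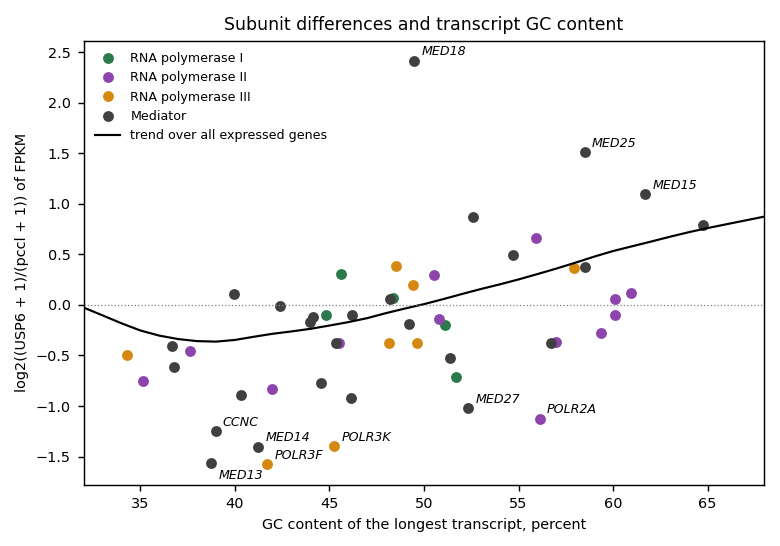
Log2((USP6 + 1)/(pccl + 1)) of FPKM against the GC content of the longest transcript for 52 expressed subunit genes, with the lowess trend over all expressed genes as a line. MED18 and POLR2A lay far from the trend, and MED16 lay on it.

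The 250 bases before the RefSeq starts of the 2 Mediator genes with the largest ratios are shown for the motifs they hold (GRCh38.p14). The windows run past the starts the deposited file lists, and the match at the end of the MED18 window lies after that start. Capitals mark matches, on either strand, to 6 short motifs that were searched.
MED18 (chr1:28328790-28329039, plus strand): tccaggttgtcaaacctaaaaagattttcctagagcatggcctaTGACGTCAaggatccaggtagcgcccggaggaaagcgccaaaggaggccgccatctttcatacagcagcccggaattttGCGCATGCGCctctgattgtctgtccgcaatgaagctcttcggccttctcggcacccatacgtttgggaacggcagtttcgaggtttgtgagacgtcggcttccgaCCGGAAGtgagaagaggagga
MED25 (chr19:49818039-49818288, plus strand): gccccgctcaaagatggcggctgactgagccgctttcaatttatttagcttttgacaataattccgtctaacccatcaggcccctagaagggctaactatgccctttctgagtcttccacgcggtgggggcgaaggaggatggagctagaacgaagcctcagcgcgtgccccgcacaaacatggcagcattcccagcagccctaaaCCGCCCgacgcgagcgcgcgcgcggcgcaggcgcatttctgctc
The motifs were CCGGAAG for ETS factors, TGTGGT for RUNX factors, GCATGCGC for NRF1, GGGCGG for SP and KLF factors, CCAAT for the CCAAT box and TGACGTCA for cyclic AMP response elements, each with its reverse complement. In MED18 the 2 orientations of the NRF1 motif overlap. Promoters were found for 46 of the 63 genes, and MED14, MED13 and POLR2J were among those not found. The ETS letters occurred in 12 of the 46 (26.1%), against 8.82% of 27305 promoters of the same length. GGGCGG occurred in 31 (67.4%, against 42.3%), CCAAT in 14 (30.4%, against 33.0%) and the RUNX letters in 2 (4.35%, against 10.9%). The NRF1 letters occurred in 3 (6.52%, against 2.81%) and TGACGTCA in 1 (2.17%, against 1.77%). Of the 46 genes, 38 were expressed, whereas the 27305 promoters were not chosen by expression or matched for GC content. A match describes letters in a window only.

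Most factors that work with the polymerases, listed separately, lay between the limits, as did 7601 of all 10153 expressed genes. Of all expressed genes, 13.7% were higher and 11.4% lower, the shares to set beside each list below. Of 31 general factors of polymerase II, all expressed, 1 was higher (3.23%) and 3 lower (9.68%). Their median log2 ratio was 0.02, against 0.06 over all expressed genes. TAF6, a subunit of TFIID, was 2.17-fold higher (2.05 to 2.31), whereas its largest subunit gene TAF1 was 4.54-fold lower (3.73 to 5.57). GTF2H3 and GTF2H1, subunits of TFIIH, were 13.8-fold (9.001 to 22.0) and 3.23-fold lower (2.73 to 3.83). GTF2H3 had 23 counts in the USP6 library and 311 in the pccl library. GTF2H3 and TAF1 reached 1 FPKM in the pccl library alone and so had to be lower. Centred on the trend with GC content, log2 ratios were 0.53 for TAF6, -0.94 for TAF1 and -0.77 for GTF2H1, all within the limit. GTF2H3, at -1.34, stayed past it.

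Among pausing and elongation factors, 31 of 32 were expressed, 2 were higher (6.45%) and 3 lower (9.68%), and the median log2 ratio was 0.08. CDK9, the kinase of P-TEFb, had 28.3 FPKM in the USP6 library and 9.01 in the pccl library, 3.14-fold higher (2.83 to 3.50). SUPT5H, a subunit of the pausing factor DSIF, was 2.23-fold higher (2.03 to 2.43). AFF1, a scaffold of the super elongation complex, was 6.67-fold lower (5.23 to 8.63). It reached 1 FPKM in the pccl library alone and so had to be lower. CDC73, a subunit of the PAF1 complex, was 3.08-fold lower (2.62 to 3.65), and CCNK, the cyclin of CDK12 and CDK13, was 2.44-fold lower (2.16 to 2.77). Centred on the GC trend, SUPT5H had a log2 ratio of 0.58 and CCNK of -0.86, both within the limit. CDK9 (1.29), AFF1 (-1.02) and CDC73 (-1.03) stayed past it.

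Integrator had 11 of 14 subunits expressed and none called, with a median of -0.01. Of 11 assembly factors and phosphatases of the C-terminal domain, 2 were lower (18.2%) and the median was 0.00. RPRD1B and RPRD1A, which bind that domain, were 5.72-fold (4.07 to 8.22) and 3.15-fold lower (2.84 to 3.49). RPRD1B reached 1 FPKM in the pccl library alone and so had to be lower. Of 5 Mediator partners at enhancers, MYC was higher, with 160 counts in the USP6 library and 22 in the pccl library, and the median was 0.10. MYC reached 1 FPKM in the USP6 library alone and so had to be higher. Centred on the GC trend its log2 ratio was 0.82, against 1.02 before.

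For polymerase I, 6 of 7 factors were expressed and none was called, with a median of 0.01. The subunits CD3EAP, TWISTNB and ZNRD1, listed under older symbols that the name rule misses, had a median of -0.47 and none was called. For polymerase III, 17 of 17 listed genes were expressed and 2 were lower (11.8%), with a median of 0.12. The list includes CRCP, itself a subunit of polymerase III that the name rule misses. CRCP had 285 counts in the USP6 library and 249 in the pccl library, with an interval that included 1. GTF3C4, a subunit of TFIIIC, was 4.15-fold lower (3.67 to 4.71), and BDP1, a subunit of TFIIIB, was 3.31-fold lower (2.97 to 3.69).

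Products of polymerase III were measured for 5 genes, and the other 7 of that list were not analysed here. Of the 5, 4 were expressed and higher in the USP6 library, against 13.7% of all expressed genes. However, RMRP and RPPH1 reached 1 FPKM in the USP6 library alone and so had to be higher. BCYRN1, which was not expressed, had 12 counts in the USP6 library and 7 in the pccl library, with an interval that included 1. RN7SL2 and RN7SL1, near-identical genes of the signal recognition particle RNA whose counts could be split between them, had 160 and 117 counts in the USP6 library, against 30 and 26 in the pccl library. RPPH1 had 17 counts in the USP6 library and 2 in the pccl library (a ratio of 8.36, 1.98 to 74.6), and RMRP had 4 and 0, with an interval that included 1. The median GC content of the 4 was 63.1%, and centred on the GC trend RN7SL2 had a log2 ratio of 1.60, against 2.26 before. Most products of polymerase III are short or structured, and how well the libraries capture them is not known.

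The polymerase of mitochondria had 4 of 6 listed genes expressed. POLRMT, its catalytic subunit, had 18.5 FPKM in the USP6 library and 8.56 in the pccl library, 2.16-fold higher (1.99 to 2.34). Centred on the GC trend its log2 ratio was 0.22, against 1.03 before. TFB2M, the initiation factor, had 12 counts in the USP6 library and 73 in the pccl library, 6.19-fold lower (3.34 to 12.5). It reached 1 FPKM in the pccl library alone and so had to be lower. Mitochondrial genes took a smaller share of the counts in the USP6 library, as given above.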

How the data were processed

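Per the labels' protocols, KASUMI-1 cells infected with the USP6 or the pccl lentivirus gave 1 RNA sequencing library each. Tools named in the submitters' processing notes, with no role stated, are StringTie 1.3.3b, HISAT2 2.0.4 and edgeR. Build, annotation and strandedness are not stated. Of the 63 genes, 55 had the locus of GENCODE 29 (GRCh38), and coordinates are those the file lists.

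The deposited counts are whole numbers per gene. The deposited FPKM is the count over a gene length and the total of the column. Over 8644 genes with more than 50 counts in both libraries, that length equalled the sum of all distinct annotated exons in 86.3%, within 0.1%, and the union of exons in 7.75%. FPKM thus understates most genes with many isoforms. Folds between libraries do not depend on that length, but log2 ratios with a pseudocount do.

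Values of 1 symbol were summed. Ratios used a pseudocount of 1 FPKM. There were 0 residual degrees of freedom, so no count test was run. Folds have exact conditional binomial (Clopper-Pearson) 95% intervals. GC content, of the longest transcript, was centred with lowess (span 0.3). Genes were named if past the limit, or as large, shared, kinase module or paralogous subunits, and other members by value, except that 1 gene counted in the totals is not reported here. In the further lists, all expressed genes past the limit were named. The members and lists were chosen with earlier results of these data known. The steps were tested on simulated data. Software was matplotlib 3.10.9, statsmodels 0.14.6, SciPy 1.17.1, pandas 2.3.3, NumPy 2.4.6, Python 3.11.15, R 4.3.3 and, for trimmed means, edgeR 4.0.16.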

Additional observations from a re-analysis of the deposited data

How the results depend on the processing

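With 1 library per group, differences between cultures were not measured, and no replicate could be left out. No paired analysis was possible because each group has 1 library. Genes near 1 FPKM rest on few counts. Of the 11 genes past the limit, MED18, MED25 and MED13 passed it under every alternative run, and none changed direction. A pseudocount of 0.1 FPKM gave 12 lower genes (19.6% of all genes were lower), and one of 5 FPKM gave 2 higher and 1 lower (3.59% and 2.96% of all genes), with a polymerase III median of -0.15. A filter of 5 FPKM turned that median to 0.0056, from fewer genes. Depth from nuclear genes gave 11 lower of 57 genes (16.1% of all genes), and a limit of 0.58 gave 7 higher and 14 lower (27.9% and 24.5% of all genes). These counts moved with the shares over all genes. With the union of exons as length, chosen after seeing the data, 9 genes were lower (12.7% of all genes) and the Mediator median was -0.30. Centring on GC content left 2 higher genes (9.70% of all genes) and moved the polymerase I median to 0.11 and that of polymerase II to -0.48. Asking 1 FPKM of the mean of both libraries, an alternative chosen after seeing the data, gave a polymerase III median of -0.090. The cause of these shifts was not tested. Of 40 medians recomputed, 35 moved by less than the typical counting interval of a gene in their group.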

Other observations

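Some subunit genes start beside a gene on the other strand. With starts within 1000 bases upstream or 500 bases of overlap, 11 such pairs with an expressed neighbour were found. POLR2A starts 103 bases from ZBTB4, which had 2.09 FPKM in the USP6 library and 1.80 in the pccl library, while POLR2A was lower. POLR1A starts 27 bases from PTCD3, which had 4.95 FPKM in the USP6 library and 5.13 in the pccl library, while POLR1A was 1.86-fold lower. MED20 starts 49 bases from BYSL, which had 4.25 FPKM in the USP6 library and 1.85 in the pccl library, while MED20 was close to even. MED19 and its neighbour TMX2 were both lower in the USP6 library, and TMX2 had 2.38 FPKM there, against 7.88 in the pccl library.

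Other overlaps touch single counts. The pseudogene RPS26P19 lies within POLR2D on the same strand and had 3 counts in the USP6 library and 220 in the pccl library. AC105052.3 overlaps POLR2J2 on the same strand and had 4 counts in the USP6 library and 162 in the pccl library. THRA overlaps MED24 on the other strand and had 544 counts in the USP6 library and 79 in the pccl library, opposite in direction to MED24. EIF2B5 shares 6879 bases with POLR2H on the same strand and had 483 counts in the USP6 library and 515 in the pccl library.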
